A study of Mus musculus with 278 samples.

Results

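Wnt ligands, their cell surface receptors and the secreted proteins that restrain or enhance them were followed in single cells cultured from mouse skin and labelled keratinocytes, of which many in 1 of the 2 series had fibroblast markers. Genes were taken by symbol: Wnt, Fzd, Sfrp, Dkk and Rspo followed by a number, together with Lrp5, Lrp6, Ror1, Ror2, Ryk, Wif1, Porcn and Wls. Of the 14145 genes listed, 33 matched. They comprised 12 Wnt ligands, 7 Frizzled receptors, the co-receptors Lrp5 and Lrp6, the receptors Ror1 and Ror2, 8 secreted inhibitors and the R-spondins Rspo1 and Rspo2. Another 16 mouse genes with such symbols, Porcn, Wls and Ryk among them, were not analysed here.

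In canonical signalling a Wnt ligand binds a Frizzled receptor together with Lrp5 or Lrp6, which halts the destruction of beta-catenin and lets it act with TCF/LEF factors in the nucleus. Ror receptors bind Wnt5a in beta-catenin-independent signalling. Sfrp and Wif1 proteins bind the ligands, Dkk1, Dkk2 and Dkk4 act on Lrp5 and Lrp6, and R-spondins raise the number of receptors at the membrane. In skin this pathway is known for its role in hair follicle formation and in stem cell maintenance.

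The cells were cultured from adult dorsal skin as mixtures of 9 parts wild-type keratinocytes and 1 part K14ΔNβ-cateninER keratinocytes. The latter express, from the keratin 14 promoter, a stabilised beta-catenin that is switched on by 4-hydroxy-tamoxifen (4OHT). Treated cultures received 200 nM 4OHT for 24 h and untreated cultures received DMSO. Transgenic cells were not told apart here, so both kinds may be among the cells. The library names fell into a series called AG and a series called GHA501A, each with untreated and treated cells. This gave 4 sets of cells: 66 AG untreated, 64 AG treated, 71 GHA501A untreated and 69 GHA501A treated, 270 cells in all. The exact age and the strain of the adult mice are not given in the sources used here, nor how many cultures or mice stand behind each set. Each series had a single set per treatment. In the main fits below, the spread behind the p-values is how far the treatment difference disagreed between the series, moderated over all genes. This spread may be technical. Values were TPM, transcript abundances corrected for gene length and scaled to sum to 1000000 in each cell, which do not carry the read depth of each cell. A gene was taken as detected at TPM over 1. The median number of genes detected per cell was 6191 in AG untreated, 6381 in AG treated, 6392 in GHA501A untreated and 6008 in GHA501A treated cells.

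The labels call every cell a keratinocyte, and in the GHA501A series the markers went against this. Krt14, the basal keratin, had a median of 4864 TPM in AG untreated and 4997 in AG treated cells, against 2.25 and 10.1 in GHA501A untreated and treated cells. Col1a1, the main fibrillar collagen, had a median of 0 TPM in both AG sets and of 1123 and 908.5 in the GHA501A sets. The 13 keratinocyte markers in the table summed to a mean of 11550 and 11580 TPM in the AG sets and 687 and 1980 TPM in the GHA501A sets, with Krt14 the most abundant in all 4. The 7 fibroblast markers summed to 57.6 and 22.7 TPM in the AG sets and 2026 and 2452 TPM in the GHA501A sets. Clustering of the cells, without the Wnt genes, gave 5 clusters, each within 1 series. By markers, 62 of 71 untreated and 60 of 69 treated GHA501A cells (87.3% and 87%) were fibroblast-like and 9 in each set were keratinocyte-like, whereas all AG cells were keratinocyte-like. Some markers of other cell types also moved with the series. Of 5 immune markers fixed, Lyz2 (lysozyme) and Csf1r were in the table. Lyz2 had means of 147.3 and 98.3 TPM in AG and 388.5 and 1079 TPM in GHA501A, where 1 cell reached 54200 TPM, and Csf1r was detected in 6.06% and 7.81% of AG and 21.1% and 21.7% of GHA501A cells. Lyz2 passed the test between the series described below (-2.42, adjusted p = 0.041) and Csf1r did not (adjusted p = 0.0804), whereas within the keratinocyte-like cells Lyz2 was higher in AG (3.34, adjusted p = 0.0462). Of the 3 melanocyte markers tested only Mitf, with 3 curated transcripts, was called, higher in GHA501A (-2.71), while the median difference of the 3 was 1.01. Tyr and Pmel had higher means in AG. Tyr had 44.6 and 28.2 TPM in AG and 9.13 and 15.5 TPM in GHA501A, and Pmel 31.65 and 21.55 TPM against 7.86 and 19.4 TPM. Of the 2 Schwann markers tested S100b was called higher in AG (2.83) and the other was not called. The part of these cell types in the Wnt values was not tested. The series therefore differed in cell class as well as in library name, and over all cells these cannot be told apart. The keratinocyte-like cells of the series shared a class but fell into different clusters, so series and cell state cannot be told apart there either.

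A further difference between the series concerned genes with several transcripts. Itgb4, a basal keratinocyte integrin, was listed at 0 in all 130 AG cells. Ctnnb1, which encodes beta-catenin, was over 1 TPM in 0 of 130 AG cells and all but 1 of the 140 GHA501A cells. The translation factors Eif4a1 and Eef1d were detected in 1 and 0 of the AG cells and in all 140 GHA501A cells, although every growing cell uses them. These genes have 2 or more curated RefSeq transcripts. Among kept genes with 2 or more such transcripts that were detected in at least 90% of GHA501A cells, 16.2% of 972 were detected in under 10% of AG cells. Among genes with 1 curated transcript it was 2.05% of 1418. A low AG value of a gene with several transcripts is therefore given below only as what the table lists. Of the 33 Wnt genes, Wnt5a, Wnt5b, Wnt7a, Wnt11, Dkk3, Ror1 and Rspo2 have more than 1 curated transcript.

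Across the 4 sets, 19 of the 33 genes were detected in at least 10% of the cells of some set. The mean share over the sets was above 90% for 3 genes, namely the receptor Fzd1, the ligand Wnt4 and the co-receptor Lrp6. It lay between 50% and 90% for 3 genes (Dkk3, Fzd7 and Fzd2), between 10% and 50% for 11 genes and below 10% for 16 genes. A cell had a median of 9 of the genes detected in AG untreated, 10 in AG treated and 7 in both GHA501A sets. Of the 33 genes, 24 were detected in more than 5 cells and entered the tests, while Fzd9, Ror1, Rspo1, Rspo2, Wif1, Wnt3, Wnt5b, Wnt8b and Wnt10b did not. Fzd9, Rspo1, Rspo2, Wif1 and Wnt8b were listed at 0 in every GHA501A cell.

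**Figure D1:**
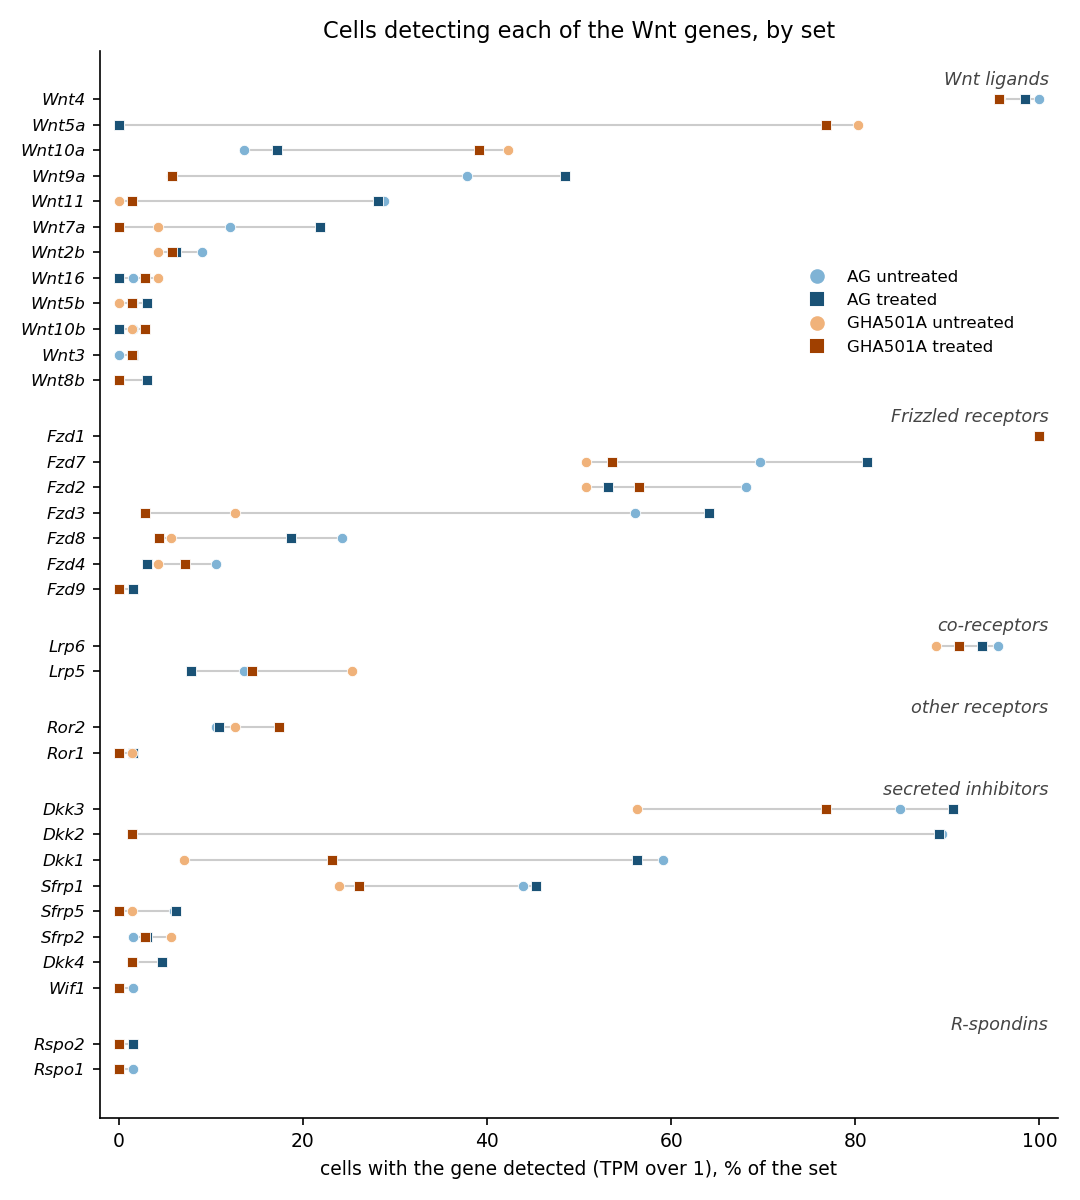
Share of cells (%) with TPM over 1 for each of the 33 genes, by role; circles are untreated and squares treated sets, blue AG and orange GHA501A, points that coincide are drawn over each other, and the grey line joins the lowest and highest set. Fzd1 sits at 100% in all 4 sets, Wnt5a is at 0% in both AG sets and above 76% in both GHA501A sets, and Dkk2 is near 89% in AG and near 1.4% in GHA501A.

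Among the ligands, Wnt4 was the most widely detected. Wnt4 is a ligand with both beta-catenin-dependent and independent actions, encoded on chr4:137277489-137299726 (GRCm38, plus strand). It was detected in 66 of 66 AG untreated, 63 of 64 AG treated, 68 of 71 GHA501A untreated and 66 of 69 GHA501A treated cells. Its mean level was 45.8 and 43.8 TPM in the untreated and treated AG sets and 11.3 and 20.7 TPM in the GHA501A sets. The series did not overlap in level. Wnt4 made up 74.1% and 68.5% of the summed ligand TPM in the AG sets and 17.6% and 25% in the GHA501A sets.

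Wnt5a, the main ligand of beta-catenin-independent signalling, lies on chr14:28504750-28527448 (plus strand), where an antisense gene, Gm2670, overlaps it. The libraries do not mark strand in the protocol given, so reads of the pair cannot be told apart. Wnt5a exceeded 1 TPM in 0 of 66 AG untreated and 0 of 64 AG treated cells, and its mean there was listed as 0.0373 and 0.0299 TPM. By counting alone (3 counts of the total), 0 of 130 cells allows a share of cells listed over 1 TPM of up to 2.31%, which is no limit on the share of cells expressing the gene. It was detected in 57 of 71 GHA501A untreated cells (80.3%, Wilson 95% interval 69.6 to 87.9%) and 53 of 69 treated cells (76.8%, 65.6 to 85.2%). The GHA501A means were 38.4 and 30.2 TPM, with single cells reaching 282.9 and 227.3 TPM. Wnt5a was the leading ligand of this series, at 60% and 36.5% of its summed ligand TPM.

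Wnt10a, a ligand needed for hair follicles and other skin appendages, has 1 curated transcript and was also more frequent in GHA501A. It was detected in 13.6% of AG untreated, 17.2% of AG treated, 42.3% of GHA501A untreated and 39.1% of GHA501A treated cells. Its means were 2.0, 2.86, 7.92 and 16.3 TPM in the same order. The highest treated GHA501A cell held 31.2% of the summed TPM of its set.

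Wnt11, Wnt7a and Wnt9a had the opposite pattern. Wnt11, a ligand of cell movement and polarity, was detected in 19 of 66 and 18 of 64 AG cells and in 0 of 71 (which allows up to 4.23%) and 1 of 69 GHA501A cells. A pseudogene, Gm8398, lies within Wnt11 on the other strand. Wnt7a, which acts in limb and hair follicle development, was detected in 12.1% and 21.9% of the AG sets and in 4.22% and 0% of the GHA501A sets, the latter allowing up to 4.35%. Wnt9a was detected in 37.9% and 48.4% of the AG sets and in 5.63% and 5.80% of the GHA501A sets. For all 3 ligands every AG share over all cells of a set lay above every GHA501A share. Within keratinocyte-like cells this did not hold for Wnt7a, detected in 16.9% of AG and 16.7% of GHA501A cells. There Wnt9a was detected in 43.1% and 16.7% and Wnt11 in 28.5% and 0%. A ligand other than Wnt4 was detected in 66.7% and 76.6% of AG untreated and treated cells and in 91.5% and 85.5% of GHA501A cells. The other 6 ligands (Wnt2b, Wnt3, Wnt5b, Wnt8b, Wnt10b and Wnt16) were each found in under 10% of every set.

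Fzd1, a Frizzled receptor on chr5:4753839-4758035 (minus strand), was detected in all 270 cells and dominated its family. Its mean was 425.8 TPM in AG untreated, 292.9 in AG treated, 305.9 in GHA501A untreated and 392.3 in GHA501A treated cells. The sets of the series overlapped. On the TPM scale, which is per length, Fzd1 made up 81.1% and 83.4% of the summed Frizzled level in the AG sets and 91.2% and 89.9% in the GHA501A sets. Fzd7, a receptor found in many epithelia, was second in every set, at 42.5, 30.7, 15.3 and 23 TPM in the same order. It was detected in 69.7%, 81.2%, 50.7% and 53.6% of the cells. Fzd2, a receptor that also takes up Wnt5a signals, was detected in 68.2%, 53.1%, 50.7% and 56.5% of the cells, with means of 28.3, 11.7, 10.7 and 15.6 TPM.

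Fzd3 and Fzd8 separated the series more clearly. Fzd3, a receptor of the planar polarity pathway, was detected in 37 of 66 and 41 of 64 AG cells and in 9 of 71 and 2 of 69 GHA501A cells. Its means were 19.6 and 13.6 TPM in AG and 1.85 and 1.64 TPM in GHA501A. A pseudogene on the other strand, Gm9086, and a small RNA gene lie within Fzd3, so its reads are less certain. Fzd8, a canonical Wnt receptor, was detected in 24.2% and 18.8% of the AG sets and in 5.63% and 4.35% of the GHA501A sets. Fzd4 was found in 2 to 7 cells of each set, and Fzd9 in 1 cell.

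Lrp6, the co-receptor phosphorylated when Wnt binds, was detected in 95.5%, 93.8%, 88.7% and 91.3% of AG untreated, AG treated, GHA501A untreated and GHA501A treated cells. Its means of 40.4, 26.5, 25.8 and 29.9 TPM overlapped between the series. Lrp6 made up 92.4% to 98.8% of the summed co-receptor level, and Lrp5, its relative, made up the rest. Lrp5 was detected in 13.6%, 7.81%, 25.4% and 14.5% of the sets, at means of 3.33, 0.320, 1.72 and 1.10 TPM. Of the Ror receptors, Ror2 was detected in 7 of 66 AG untreated cells (Wilson interval 5.23 to 20.3%) and in 10.9%, 12.7% and 17.4% of the other sets, and Ror1 in 3 cells in all. In GHA501A cells, where Wnt5a was common, both Wnt5a and Ror2 were detected in 8 of 71 and 10 of 69 cells (11.3% and 14.5%), close to the products of their shares (10.2% and 13.4%).

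The secreted inhibitors made up a summed mean of 150.9 and 129.2 TPM in the AG sets and 42.2 and 68.9 TPM in the GHA501A sets. Dkk3, a Dickkopf relative that does not act on Lrp5 or Lrp6 as Dkk1 does, supplied 69% to 78.8% of this in each set. It was detected in 84.8%, 90.6%, 56.3% and 76.8% of AG untreated, AG treated, GHA501A untreated and GHA501A treated cells, with means of 112.2, 93.3, 29.1 and 54.3 TPM. Sfrp1, which binds Wnt ligands, was the next most abundant, and was detected in 43.9% and 45.3% of the AG sets and in 23.9% and 26.1% of the GHA501A sets.

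Dkk2 and Dkk1, which bind Lrp5 and Lrp6, were detected mostly in AG cells. Dkk2 lies on chr3:132085292-132180304 (plus strand) and Dkk1 on chr19:30545863-30549665 (minus strand), and both have 1 curated transcript. Dkk2 was detected in 59 of 66 and 57 of 64 AG cells and in 1 of 71 and 1 of 69 GHA501A cells. Its means were 11.2 and 6.14 TPM in AG and 1.76 and 0.911 TPM in GHA501A, where 1 cell held 99.6% and 98.6% of the summed level of its set. Dkk1 was detected in 39 of 66 and 36 of 64 AG cells and in 5 of 71 and 16 of 69 GHA501A cells, with means of 4.86, 3.92, 0.269 and 0.709 TPM. Both genes were detected in 36 of 66 AG untreated and 33 of 64 AG treated cells (54.5% and 51.6%), close to the products of their shares (52.8% and 50.1%). Dkk4 was detected in 1, 3, 1 and 1 cells of the 4 sets, Sfrp2 and Sfrp5 in 9 cells each of all 270, and Wif1 in 1. Rspo1 and Rspo2 were each detected in 1 AG cell.

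The promoters of Dkk2 and Wnt11 are shown because both genes were more often detected in AG than in GHA501A cells and each holds TATAAA, the TATA box letters, within 60 bases of its start. They are the 250 bases before the RefSeq start (GRCm38.p6), written 5′ to 3′ on the gene's strand, at chr3:132085042-132085291 (plus) and chr7:98834862-98835111 (plus, the first of 2 Wnt11 entries). Capitals mark TATAAA and CTTTGA, the core letters of a TCF/LEF site, or its reverse complement TCAAAG.
Dkk2: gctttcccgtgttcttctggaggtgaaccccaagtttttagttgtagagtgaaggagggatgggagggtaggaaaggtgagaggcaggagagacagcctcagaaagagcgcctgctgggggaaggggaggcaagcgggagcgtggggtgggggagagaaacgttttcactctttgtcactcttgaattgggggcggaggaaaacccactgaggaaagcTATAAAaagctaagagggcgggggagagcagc
Wnt11: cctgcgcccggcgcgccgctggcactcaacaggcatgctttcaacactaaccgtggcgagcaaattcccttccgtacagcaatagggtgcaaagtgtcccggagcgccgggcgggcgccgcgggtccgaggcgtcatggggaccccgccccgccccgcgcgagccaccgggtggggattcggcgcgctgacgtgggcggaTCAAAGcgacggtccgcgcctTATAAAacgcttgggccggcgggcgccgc
TATAAA starts 32 bases before the start in Dkk2 and 29 in Wnt11. The TCF/LEF letters lie at 1 place in Wnt11, 50 bases before the start. The second Wnt11 entry, not printed, holds neither TATAAA nor the TCF/LEF letters. The RefSeq start of Dkk1 lies within the GENCODE gene span given above, so the place of its promoter depends on the annotation and it is not printed. On either strand, 5 of the 22 genes whose promoters were searched held CTTTGA in at least 1 of their 25 promoters and 5 held TATAAA, and of all 32851 promoters 13.8% held CTTTGA and 12.4% held TATAAA. A match of letters is a description of the sequence and not a binding site.

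To ask which of the genes differed between the series, log2(mean TPM + 1) of the sets was compared with limma across 12355 genes, with treatment as a covariate. A gene was called at an adjusted p under 0.05 and a difference over 0.5. The series differed widely, with 10.8% of all genes called higher in AG and 18.2% higher in GHA501A. Of the 24 Wnt genes tested, 7 were called higher in AG and 2 higher in GHA501A. The median difference, AG minus GHA501A, was 0.82 for these genes and -0.01 for all genes. In shares of cells, the AG sets did not overlap the GHA501A sets for 15 genes with AG higher and 5 with GHA501A higher, and over all genes these were 40.5% and 34.8%.

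The genes called higher in AG were 3 inhibitors of the Dickkopf family (Dkk1, Dkk2 and Dkk4), the receptors Fzd3 and Fzd8, and the ligands Wnt7a and Wnt11. Fzd3 was higher by 2.66 ± 0.34 on the log2 scale (SE, adjusted p = 0.0068). Dkk2 was higher by 2.02 ± 0.33 (adjusted p = 0.0141) and Dkk1 by 1.87 ± 0.36 (adjusted p = 0.0231). Over the alternatives run the size went from 1.69 to 3.16 for Fzd3, from 1.64 to 3.05 for Dkk2 and from 1.05 to 3.03 for Dkk1. Wnt7a was higher by 2.39 ± 0.41, Wnt11 by 1.93 ± 0.33 and Fzd8 by 1.61 ± 0.35, with limma adjusted p from 0.0156 to 0.0326. Wnt11 was listed at or near 0 in GHA501A. The Wnt7a difference is over all cells, and within keratinocyte-like cells its shares were close, at 16.9% in AG and 16.7% in GHA501A. Wnt7a and Fzd8 had GHA501A untreated means of 1.04 and 1.30 TPM, with 50.4% and 86.4% of the summed level in 1 cell, and the latter was close to the AG treated mean of 1.86 TPM. The sizes of all 3 depended on the setting, and over the alternatives run they went from 0.87 to 4.6 for Wnt11, from 0.71 to 4.28 for Wnt7a and from 0.64 to 2.70 for Fzd8. The Dkk4 difference of 1.87 ± 0.35 came from few cells: 1 cell held 100% and 94% of the level of the AG sets, and without the highest cell of each set the difference was 0.21 (adjusted p = 0.593).

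Wnt5a and Wnt10a were called higher in GHA501A. For Wnt5a the difference was -5.08 ± 0.33 (adjusted p = 0.00186) and for Wnt10a it was -1.87 ± 0.35 (adjusted p = 0.0213). Over the alternatives run they went from -8.00 to -3.53 for Wnt5a and from -2.35 to -1.01 for Wnt10a. As the AG sets list Wnt5a near 0, the size of its difference depended on the pseudocount and was -8.00 with 0.1 in place of 1. Wnt5a is the 1 called Wnt gene with several curated transcripts that was low in AG. Among genes with 2 or more curated transcripts 32.5% were called higher in GHA501A, against 8.25% of those with 1, and the part of this in the Wnt5a difference was not tested. Wnt7a and Wnt11 also have several curated transcripts and were higher in AG. When genes with 1 curated transcript were fitted alone, Dkk1, Dkk2, Dkk4, Fzd3, Fzd8 and Wnt10a were called, 6 of 20, beside 18% of all genes in that fit (11.3% higher in AG and 6.65% in GHA501A).

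Wnt4 was 1.49 ± 0.39 higher in AG and did not pass (adjusted p = 0.0502), nor did Wnt9a (1.35, adjusted p = 0.0737) or Dkk3 (1.34, adjusted p = 0.0799). Fzd1, Lrp5 and Lrp6 differed by 0.03, 0.00 and 0.23 with SE of 0.39, 0.45 and 0.38. The Lrp5 value rested on 1 AG untreated cell of 145.1 TPM with 66% of the level of its set. Without the highest cell of each set it was -0.31 (adjusted p = 0.434), in cells with at least 5000 genes it was -0.89 (adjusted p = 0.0965), and its shares of cells were higher in both GHA501A sets than in either AG set. With 4 sets and 1 residual degree of freedom the calls could depend on each set. With a set left out, its series had 1 set and the fit could not also hold the treatment term. The other series alone then gave the spread. The calls from such fits, given next, therefore differ from the main fit in more than the set and cannot show which calls hold. Without the AG untreated set only Wnt5a of the Wnt genes was called, and without the AG treated set only Wnt5a and Fzd3, beside 8.28% and 10.2% of all genes. Without the GHA501A untreated set 8 were called, beside 18% of all genes. These were Fzd3, Wnt7a and Wnt11 higher in AG and Wnt5a, Wnt10a, Ror2, Wnt2b and Wnt16 higher in GHA501A. Without the GHA501A treated set Fzd3, Wnt7a, Wnt11, Dkk1 and Wnt4 were higher in AG and Wnt5a in GHA501A, beside 17.8% of all genes. Dkk2, Dkk4 and Fzd8 were called in 0 of the 4 leave-outs, Dkk1 and Wnt10a in 1 each. Over the alternatives run that kept all 4 sets, Wnt5a and Wnt11 were called in 9 of 9 each. Fzd3, Dkk2 and Wnt10a were called in 10 of 10 each and Dkk1 in 9 of 10. Wnt7a was called in 6 of 8, Fzd8 in 7 of 10 and Dkk4 in 6 of 9. Wnt4, Wnt9a and Dkk3 were called when the highest cell of each set was left out, where 15.9% of all genes were called higher in AG.

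**Figure D2:**
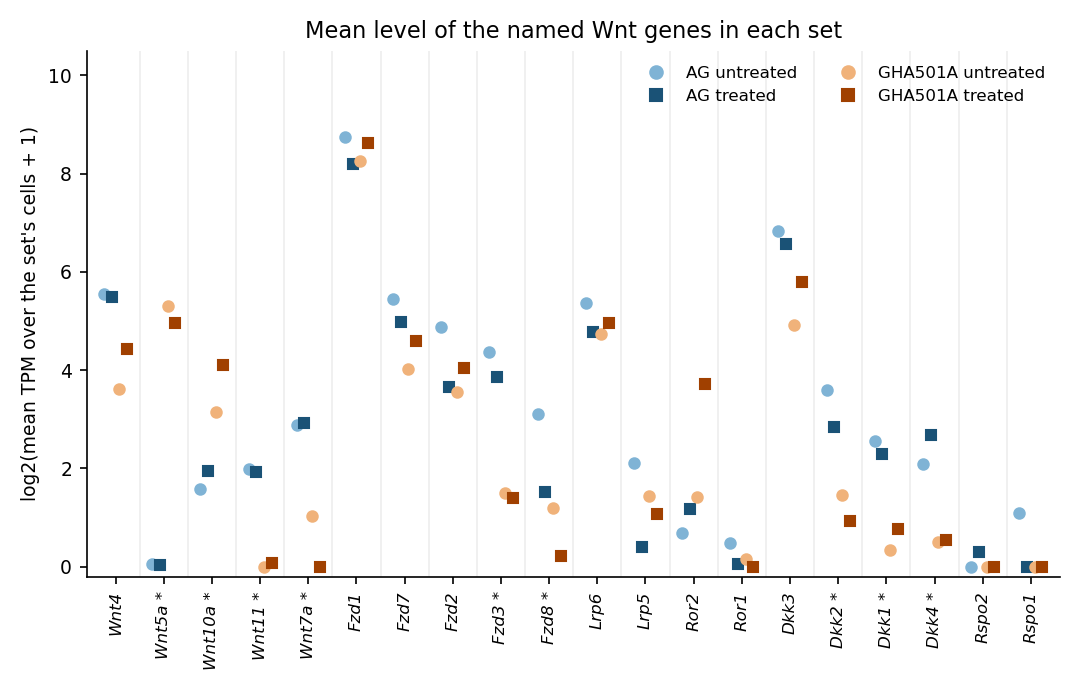
Level of the 20 named genes in each set, as log2(mean TPM + 1) over its cells; circles are untreated and squares treated sets, blue AG and orange GHA501A, and an asterisk marks the 9 genes called between the series. Both AG points of Wnt5a lie near 0 with the GHA501A points near 5, Dkk1, Dkk2, Fzd3 and Wnt11 have both AG points above both GHA501A points, and the 4 Fzd1 points lie together above 8.

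**Figure D3:**
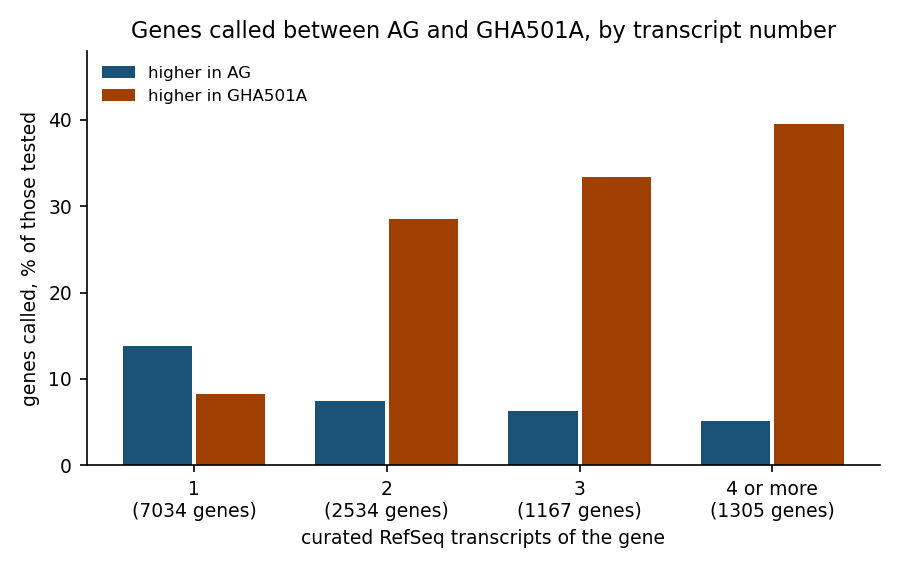
Percent of tested genes called higher in AG (blue) or in GHA501A (brown), by number of curated RefSeq transcripts. From 1 to 4 or more transcripts the share called higher in GHA501A is 8.25%, 28.5%, 33.4% and 39.5%, and the share called higher in AG is 13.8%, 7.46%, 6.34% and 5.13%.

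Other genes of the pathway were counted from lists of surface and extracellular, intracellular, and target genes. Of 23 other surface and extracellular genes tested, 3 were higher in AG and 2 in GHA501A. Kremen2, a receptor for Dkk proteins, was 3.27 higher in AG and Gpc4, a cell surface glypican, 1.97 higher, while Vangl1, a planar polarity protein, was 4.53 lower and Cthrc1, a secreted collagen-associated protein, 2.45 lower. Of 28 intracellular transducers, 1 was higher in AG and 9 were higher in GHA501A. Jup, the junctional relative of beta-catenin, was 3.10 higher in AG, and Ctnnb1 and the kinase Csnk1d were listed near 0 in AG, with differences of -6.32 and -4.61. Both have 2 curated transcripts, and all of the 9 except Dvl2, a Dishevelled protein, have 2 or more. Over all genes 18.2% were called higher in GHA501A, and 32.5% of those with 2 or more curated transcripts. Of 15 target and feedback genes, 1 was higher in AG (Jag1, a Notch ligand, by 2.30) and 3 in GHA501A, where Cd44, a hyaluronan receptor with 6 curated transcripts, had a difference of -5.62 and Lef1, a TCF/LEF factor with 7, of -1.77. The lists' medians were 0.39, -0.22 and -0.65.

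Within the GHA501A series, Wnt genes were compared by class as a description. Wnt5a was detected in 100 fibroblast-like cells (82%, Wilson interval 74.2 to 87.8%) and 10 of 18 keratinocyte-like cells, at means of 37.8 and 10.9 TPM. The keratinocyte-like cells with Wnt5a were 2 of 9 untreated and 8 of 9 treated cells, at means of 8.5 and 13.4 TPM. In the 10 keratinocyte-like cells with Wnt5a, Krt14 ranged from 416.8 to 12670 TPM and Col1a1 from 5.18 to 145.4 TPM (median 28.1). In the 8 without Wnt5a, Krt14 ranged from 607.2 to 4376 TPM and Col1a1 from 5.77 to 46.2 TPM (median 9.20), and the part of Col1a1 RNA in the Wnt5a values was not tested. Wnt10a was detected in 10 of 18 keratinocyte-like and 38.5% of the fibroblast-like cells, at means of 11.6 and 12.1 TPM and medians of 1.18 and 0 TPM. The highest cell, of 89.2 and 350.9 TPM, held 42.7% and 23.7% of the Wnt10a level of its class. Wnt4 was detected in 18 of 18 keratinocyte-like and 95.1% of fibroblast-like cells, and Dkk3 in 15 of 18 and 63.9%. Fzd1 had a mean of 63.4 TPM in the keratinocyte-like and 390.6 TPM in the fibroblast-like cells, with medians of 24.0 and 266 TPM. In the keratinocyte-like class 1 cell of 496.8 TPM held 43.6% of the Fzd1 level. Dkk2 and Wnt11 were each detected in 0 of 18 keratinocyte-like cells, which allows a share of up to 16.7%. Wnt7a was detected in 3 of 18 keratinocyte-like cells and in 0 of the fibroblast-like cells. The 3 were among the 9 untreated cells, and the untreated and treated means were 8.23 and 0 TPM, beside 6.37 and 6.61 TPM in AG.

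The series were then compared within the keratinocyte-like cells, 66 and 64 AG cells against 9 and 9 GHA501A cells. Clusters 1 and 2 held the AG cells and cluster 5 the GHA501A cells. The clusters were not alike in their leading genes: those of cluster 5 by fold included Sprr2h, Sprr2i, Dmkn, Klk10, Klk6 and Asprv1, several of them known from late keratinocyte differentiation. Of the fixed list of suprabasal markers, 4 were tested between the series within this class and 0 were called. The median of Krt14 was 5358 TPM in cluster 1, 3106 in cluster 2 and 2028 in cluster 5. The part of this difference in the values below was not tested. Of all 11740 genes tested 13.5% were called, 5.32% higher in AG and 8.20% higher in GHA501A. Of 21 Wnt genes, Dkk2 was called higher in AG, by 3.22 ± 0.51 (adjusted p = 0.0322), and Wnt5a higher in GHA501A, with a difference of -3.50 ± 0.50 (adjusted p = 0.0267). Dkk2 was listed at 0 in all 18 GHA501A cells of this class and Wnt5a near 0 in AG, so both sizes depended on the pseudocount, and with 0.1 they were 6.39 and -6.33. In the untreated GHA501A set 1 of the 9 cells, at 70.5 TPM, held 92.2% of the Wnt5a level, and the mean of the other 8 was 0.743 TPM. Without the highest cell of each set the Wnt5a call was lost (-2.06, adjusted p = 0.112), Dkk2 was still called (3.06, adjusted p = 0.0172) and Dkk1, Dkk3, Sfrp1, Fzd1, Fzd2, Fzd3 and Wnt9a were also called higher in AG, as were 17.5% of all genes in that fit. This step removed 1 of 9 cells from the GHA501A sets and 1 of 66 or 64 from the AG sets. Fzd1, at a difference of 2.48 ± 0.54 (adjusted p = 0.0592), Sfrp1 (2.40, adjusted p = 0.0620) and Wnt10a (-1.84, adjusted p = 0.0858) did not pass. Both calls were lost without either AG set. Such a fit has 1 AG set, takes its spread from the GHA501A sets alone and cannot also hold the treatment term. The loss is therefore not particular to these genes and cannot show whether the calls hold. The Wnt5a call was also lost with k-means clusters (adjusted p = 0.174) and with the set mean of log2 values (adjusted p = 0.134), and Dkk2 was not called when genes with 1 curated transcript were fitted alone (adjusted p = 0.0561). Among genes with 2 or more curated transcripts 18% were called higher in GHA501A here, against 1.47% of those with 1. Of the other lists, 2 of 21 surface genes were higher in AG and 2 in GHA501A, 6 of 26 transducers were higher in GHA501A, and 1 of 12 target genes was. None of these 7 transducers and targets has a single curated transcript. Cthrc1, which was lower in AG over all cells, was 4.14 higher in AG within this class. Vangl1 had a difference of -4.57, Ctnnb1 of -6.00, Daam1, a formin-family effector of Dishevelled, of -5.10 and Cd44 of -6.88. Sostdc1, a secreted inhibitor of Wnt and BMP signalling, had a difference of -2.95, and Ptk7, a Wnt co-receptor, of 3.22.

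**Figure D4:**
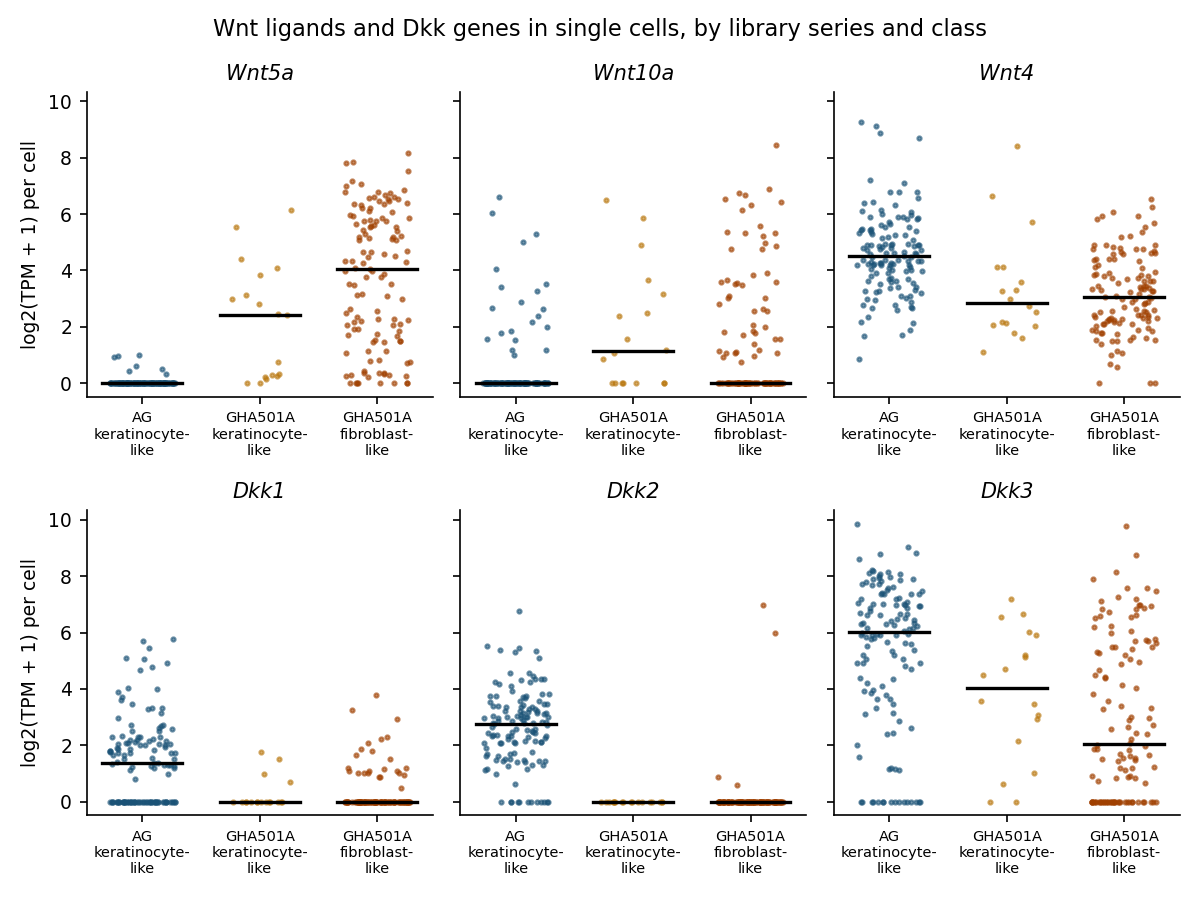
Level of 3 ligands and 3 Dkk genes in single cells, as log2(TPM + 1), for the 130 AG and 18 GHA501A keratinocyte-like cells and the fibroblast-like cells of GHA501A; each point is a cell and the bar is the median. Dkk2 is above 1 TPM in 89.2% of AG cells and in 0 of the 18 keratinocyte-like GHA501A cells, and Wnt5a is above 1 TPM in 0, 10 and 100 cells of these 3 groups.

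Within AG, cluster 2 (23 cells, median 4632 genes detected) had fewer genes per cell than cluster 1 (the other AG cells, median 6414). Dkk3 was detected in 56.5% of cluster 2 and 94.4% of cluster 1, Lrp6 in 73.9% and 99.1%, and Fzd2 in 34.8% and 66.4%. Dkk1 and Lrp5 went the other way, at 69.6% and 55.1% for Dkk1 and 30.4% and 6.54% for Lrp5. Wnt4, Fzd1 and Dkk2 were detected at much the same share in both, from 87% to 100%. Their mean levels were higher in cluster 2, at 140.3 against 24.3 TPM for Wnt4, 745.3 against 277.7 TPM for Fzd1 and 19.9 against 6.29 TPM for Dkk2. In cluster 1 the untreated and treated Wnt4 means were 21.5 and 26.6 TPM, beside 45.8 and 43.8 TPM over all AG cells. Within GHA501A, cluster 4 (24 cells) detected several of the genes more often than cluster 3 (98 cells), with Lrp5 in 45.8% against 14.3%, Ror2 in 29.2% against 11.2% and Dkk1 in 29.2% against 12.2%. Wnt10a was detected less often in cluster 4, at 25% against 41.8%. Keratinocyte markers were also higher in cluster 4, with mean Krt14 of 279.8 against 27.6 TPM (medians 22.2 and 3.11), Krt5 of 213 against 6.89 TPM and the epithelial adhesion gene Epcam of 101.5 against 3.96 TPM, and their part in these shares was not tested. These shares and levels describe the clusters and were not tested.

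The study asked how wild-type keratinocytes respond when beta-catenin is activated in their neighbours. As transgenic cells were not told apart here, treated and untreated mixtures were compared, with the series as a block. No Wnt gene was called. In simulated data at the spread of these sets the fit failed to call even very large treatment changes. The simulation changed few genes and drew each gene's spread from 1 residual degree of freedom. Between the series the real fit called differences smaller than some that the simulation missed, such as 2.30 for Jag1. The simulation therefore does not give the power of this fit. With only 4 sets the absence of calls still does not show an absence of change. Of all 12355 genes limma called 0 in either direction (0%), and 459 (3.72%) had an unadjusted p under 0.05. Of the 24 Wnt genes, 1 had an unadjusted p under 0.05. This was Fzd8, with a difference of -1.29 ± 0.35 (adjusted p = 0.998), and 1 of 24 is near the share over all genes. Its means were 7.63 and 1.86 TPM in AG untreated and treated cells and 1.30 and 0.157 TPM in GHA501A cells. Without the highest cell of each set the difference was -0.90 and no Wnt gene had an unadjusted p under 0.05, nor did any without the block or with the set mean of log2 values. Of the other alternatives that kept all 4 sets, 3 Wnt genes had such a p with a pseudocount of 0.1, 2 with genes detected in 10% of cells and 2 with the 8 conflicting cells placed by label.

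The AG sets differed in makeup, since cluster 2, with few genes per cell, took up 17 cells of the untreated set and 6 of the treated one. Its part in the treatment values was not tested, and values from cells with at least 5000 genes or from cluster 1 are given below for Dkk2, Dkk3, Lrp5 and Fzd8.

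The shares of cells moved with treatment by at most 20.5 percentage points. They were higher in treated cells in both series for 8 of the 33 genes, lower in both for 4, opposite for 14 and equal in a series for 7. The same counts were not made over all genes, so these are no result about the Wnt genes. Any difference in share was counted, even where the same number of cells detected the gene in both sets. This was so for Dkk4 and Wnt3 in GHA501A, with 1 cell in each set, and both are among the 8. The largest shift was that of Dkk3 in GHA501A, from 56.3% to 76.8%, with 84.8% and 90.6% in AG and 93.9% and 94.8% in cluster 1. Dkk1 went from 7.04% to 23.2% in GHA501A and from 59.1% to 56.2% in AG. Lrp5 went from 13.6% to 7.81% in AG and from 25.4% to 14.5% in GHA501A. The AG direction was not kept at a limit of TPM over 0, with 21.2% and 25%, or in cluster 1, with 6.12% and 6.90%. Krt14 itself had a mean of 225.6 TPM in GHA501A untreated and 846.5 TPM in treated cells, and its part in these values was not tested.

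In level, the treated-minus-untreated difference had the same sign in both series for 11 of 24 Wnt genes (45.8%) and for 47.3% of all genes. Dkk2 was lower in treated cells by 0.77 in AG and 0.53 in GHA501A (fit, -0.65 ± 0.33, adjusted p = 0.998). Its untreated and treated AG means were 7.24 and 5.48 TPM in cluster 1 and 22.5 and 12.5 TPM in cluster 2, and nearly all of its GHA501A level came from 1 cell of each set. Wnt10a was higher by 0.36 and 0.96 and Wnt5a differed by -0.01 and -0.34. Lrp5 had a fitted difference of -1.04, and 1 AG untreated cell of 145.1 TPM held 66% of the level of its set. In cells with at least 5000 genes it was -0.15, and in cluster 1 the AG means were 0.266 and 0.321 TPM. Fzd8 had a difference of -0.88 in cells with at least 5000 genes. Other large differences also came from 1 cell. Ror2 was 2.30 higher in treated GHA501A cells, where 1 cell of 645.5 TPM held 76.8% of the summed level, and its fitted difference went from 1.39 to 0.59 without the highest cell of each set. Wnt2b, at 2.08 higher in treated GHA501A cells, had 85% of its level in 1 cell, and Wnt16, at 1.85 higher, had 98.6%.

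**Figure D5:**
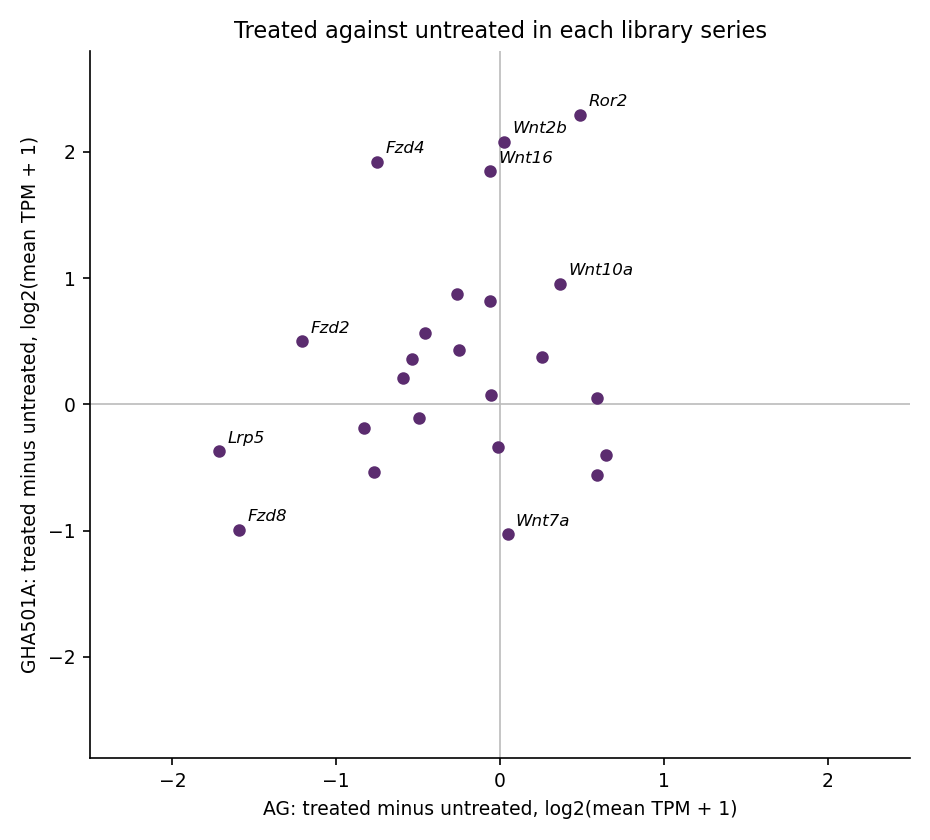
Treated minus untreated difference in log2(mean TPM + 1) in AG (horizontal) and GHA501A (vertical) for the 24 tested genes; each point is a gene, named where a difference exceeds 0.9. Fzd8 and Lrp5 lie in the lower left, with the AG value of Lrp5 resting on 1 untreated cell with 66% of its level, Ror2 in the upper right, and 11 of the 24 points have the same sign on both axes.

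The other lists gave 0 calls for treatment, with 23 surface genes, 28 transducers and 15 targets tested. Of their most abundant genes, Sdc1, a syndecan, differed by -0.14 ± 0.33 and Lgr4, an R-spondin receptor, by -0.63 ± 0.43. Gsk3b, the kinase of the destruction complex, differed by -0.14 ± 0.33 and Tnks2, a tankyrase, by -0.07 ± 0.40. Jag1 differed by -1.05 ± 0.48 and Ccnd1, cyclin D1, by -0.20 ± 0.33. The limma adjusted p was 0.998 for each of these.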

How the data were processed

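Per the study's methods and the submitters' processing notes, the authors trimmed reads (FastQC, Cutadapt), mapped them to GRCm38 with TopHat keeping uniquely mapped reads, counted them per gene with featureCounts and deposited TPM. Gene lengths and annotation used are not given in the sources used here. Doublets were removed by the authors from images of the capture chip, and no caller was run. All 270 cells exceeded the study's minimum of 2000 genes. Columns of 16 cells matching no label were not used, and 8 cells whose library name and label conflict were left out.

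Sets were compared with limma 3.58.1 (R 4.3.3; two-sided moderated test, Benjamini-Hochberg over all genes) on log2(mean TPM + 1), in place of a count test since TPM carries no depth. A gene entered the fit if over 5 cells had a TPM above 1. The series was a replicate block for treatment: the pairing comes from the library names, and sets of a series deviated together, since 29.0% of genes were called between series. Ward clustering into 5 clusters used 10 principal components of the log2 values and left out cell-cycle and Wnt genes. A cluster was named from at least 3 markers of a class with median TPM over 10 and fewer than 3 of the other class, a rule chosen after seeing the data. Tables, clusters and figures were made in Python 3.11.15 with pandas 2.3.3, scikit-learn 1.9.0 and matplotlib 3.10.9. Wilson intervals of 95% cover counting of cells only.

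Named genes were all those called plus, in each role, the 3 detected in most cells, 20 in all, and from each other list the 2 largest differences called in each direction or, with none called, the 2 highest levels. Other Wnt genes are named to complete a role. Members, lists and tests were chosen with earlier results of these data known. Positions are from GENCODE M21 (GRCm38), promoters and counts of curated (NM) transcripts from RefSeq GRCm38.p6, matched by symbol for 97.5% of kept genes and all 33 Wnt genes. The steps were tested on simulated data: large changes were recovered at a small spread, only some very large ones between series at the spread of these sets, and none for treatment. That simulation changed few genes and drew spreads from 1 residual degree of freedom, so it does not give the power of the fits. Alternatives were the detection limit, pseudocount, gene filter, terms of the fit, the set mean of log2 values, clustering, the 8 cells, cells with at least 5000 genes and each set left out. Leaving out the highest cell of each set (in all 3 comparisons), genes with 1 curated transcript alone, the 5000-gene limit for treatment and the keratinocyte-like fit with no treatment term were added after seeing the data.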

Additional observations from a re-analysis of the deposited data

Results flagged for a closer look

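For 3 of the 24 Wnt genes the sets of AG and of GHA501A moved in opposite directions with treatment by more than 0.5 on the log2 scale, and the difference between the series was not tested. Fzd2 differed by -1.21 in AG and 0.50 in GHA501A, treated minus untreated. The GHA501A rise rested on 1 treated cell of 444.3 TPM, which held 41.3% of the summed level of its set. In AG, cluster 2 (17 untreated and 6 treated cells, with few genes per cell) had Fzd2 means of 57.7 and 0 TPM and cluster 1 of 18.2 and 12.9 TPM, and the fitted difference over both series was -0.35, or -0.07 in cells with at least 5000 genes. Fzd4, a receptor of Norrin and Wnt ligands, differed by -0.75 in AG and 1.92 in GHA501A, where 1 treated cell of 238.2 TPM held 92.8% of the summed level of its set. Sfrp2, an inhibitor typical of dermal fibroblasts, differed by 0.59 in AG and -0.56 in GHA501A, with 1 and 2 cells detecting it in AG untreated and treated and 4 and 2 in GHA501A.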

How the results depend on the processing

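Of the 33 genes, the number detected in at least 10% of a set stayed within 1.5 times of 19. This held for the detection limits, the 8 cells and the cells with at least 5000 genes. The number so detected in a cluster was 20 with 10 and with 20 principal components. The main fit called 29% of all genes between the series. Under the 9 alternatives that kept all 4 sets and all transcripts the share went from 20% to 44.8%. Where 11 Wnt genes were called it was 44.8% (set mean of log2 values) and 37.2% (highest cell of each set left out). Between the series, 7 to 11 Wnt genes were called under the 9 alternatives that kept all 4 sets and all transcripts, and 1 to 8 with each set left out in turn. The number of all genes called was 5539 with the set mean of log2 values, 1264 with genes of 1 curated transcript alone (fewer genes tested) and 1023 to 2229 with each set left out. Within keratinocyte-like cells, 6 Wnt genes were called without the treatment term, 8 without the highest cell of each set, 0 with genes of 1 curated transcript and 0 to 9 with each set left out. All genes called there numbered 1031 with the set mean of log2 values, 3047 without the highest cell of each set, 256 with genes of 1 curated transcript and 0 to 3316 with each set left out. Of the 11740 genes tested there, 2211 (18.8%) were called without the treatment term, beside 1588 (13.5%) in the main fit. For treatment 0 genes were called under every alternative run. This says nothing about stability, since it is not known how large a treatment change the fit would call with 4 sets. Without the replicate block 0 Wnt genes and 0 genes in all were called, with 53 at an unadjusted p under 0.05 in place of 459. Called Wnt genes kept their direction under every alternative run. Unless stated, the cause of a change was not tested. With no read depth per cell in the table, a low value cannot be told from a missed one.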

Other observations

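The 8 cells whose library name and treatment label conflict belong to no set. Wnt4 and Fzd1 were detected in all 8 of them, at medians of 34.5 and 168.4 TPM. Dkk2 was detected in 7, Dkk1 in 5, Wnt11 in 4 and Fzd3 in 6, while Wnt5a was listed at 0 in all 8. Krt14 was detected in 8 (median 3860 TPM) and Col1a1 in 3 (median 0 TPM).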
